A study of Arabidopsis thaliana with 8 samples.

Results

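BCAT4 and UGT74B1 encode enzymes of glucosinolate synthesis, and their transcripts were followed along the inflorescence stem of Arabidopsis thaliana in the cov mutant and in wild type Ler-0. Probe sets were taken by gene symbol, which gave 2 members, 1 probe set for each gene, of 22746 probe sets other than controls. Both genes were chosen by the signal values of these same arrays, which had shown BCAT4 higher in cov at the tip and both genes higher in cov at the base. Their own differences are therefore given below as a description with an error and without a test. The study measured total RNA on 8 ATH1 arrays, a short-oligonucleotide design with 1 summarised signal per probe set. The arrays fall into 4 groups of 2, namely cov stem tip, cov stem base, wild type stem tip and wild type stem base. The cov plants carry a mutation in COV, a gene the series links to vascular patterning, and the wild type is Ler-0 (stock code NW20). The sources used here name neither the cov allele nor its genetic background. All groups were taken at growth stage 6.10 from compost-grown plants at 22 °C, 65% humidity and 24 hours of light, without added nutrients and with the insecticide Intercept.

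Glucosinolates are sulfur-rich defence compounds of the cabbage order, stored away from the myrosinase enzymes that break them down when tissue is damaged. Aliphatic glucosinolates start from methionine. BCAT4, a cytosolic branched-chain aminotransferase, removes the amino group of methionine and so opens the cycle that lengthens the side chain. The amino acid is later turned into a thiohydroximate, to which UGT74B1, a glucosyltransferase, adds glucose before a sulfate is attached. UGT74B1 acts in the core pathway shared by aliphatic and indolic glucosinolates, whereas BCAT4 belongs to the methionine branch alone. Further enzymes then alter the side chain, and transporters of the GTR family load the finished compounds into the phloem.

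The array medians lay between 41.4 and 50.1 signal units, with the lowest in array 1 of the wild type base. Secondary wall markers with a named probe set were 3 (IRX15, IRX15-L and GUT2) of 15 entries, and their summed signal was 170.2 to 228.4 in the tips against 1235.2 to 2902.4 in the bases. At the base that sum was 1235.2 to 1759.2 in cov and 2315.5 to 2902.4 in wild type. Of 8 anther and pollen markers 2 had a probe set (AMS and SHT). Their sum was 269.8 to 321.6 in cov tips and 310.2 to 338.4 in wild type tips, and 9.4 to 21.2 in the bases, so RNA of floral organs was measured in the tips of both genotypes. Of 7 myrosin cell markers only FAMA (FMA) was measured, at 40.0 to 67.4 on all arrays, and the phloem, green tissue and epidermis markers had 0 named probe sets. Of 3 trichome markers only TRY was measured, at 60.5 and 62.5 in cov tips, 42.9 and 44.9 in wild type tips and 18.5 to 28.5 in the bases. Of 8 markers of dividing cells and shoot apex only CLV3 had a probe set. It stayed at 2.2 to 12.2 and did not pass the filter on dim probe sets, so the share of apex tissue cannot be read from it.

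BCAT4 signal was lowest in the wild type stem tip and far higher at the stem base of both genotypes, with cov above wild type at each end. Its signal was 37.7 and 51.0 on the 2 wild type tip arrays, close to the medians of those arrays (48.2 and 49.2). In cov tips it was 585.1 and 535.9. In wild type bases it was 2651.9 and 2346.2, and in cov bases 3645.3 and 4023.4. The order of the groups was thus wild type tip, cov tip, wild type base and cov base, and no neighbouring groups in that order overlapped. No detection calls were used, and whether the probe set was above background in wild type tips was not tested.

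**Figure D1:**
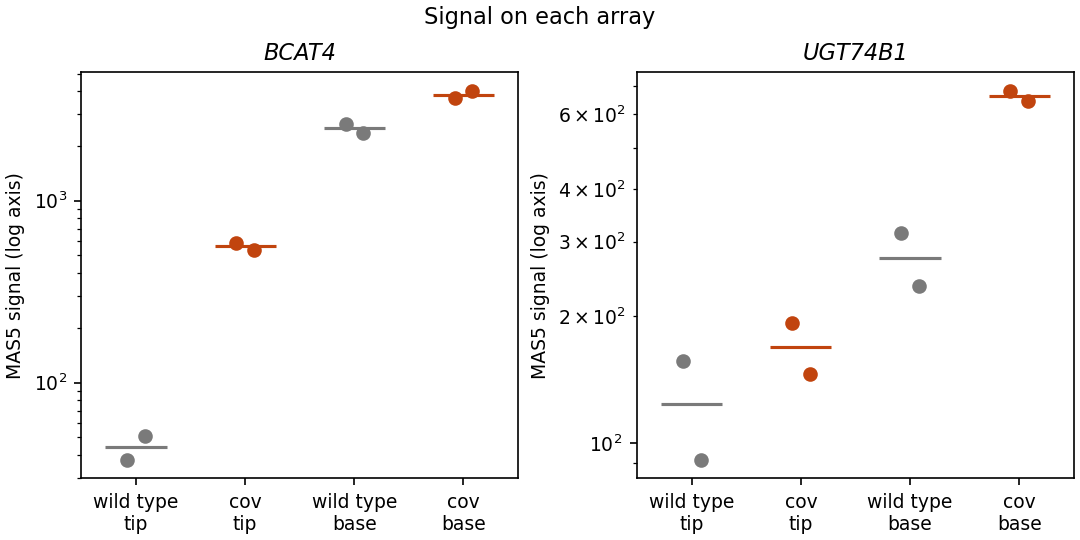
MAS5 signal (log axis) of BCAT4 and UGT74B1 on each of the 8 arrays. Points are arrays and lines are group means (n = 2 arrays per group), with wild type in grey and cov in orange. The 4 groups of BCAT4 do not overlap and run from a mean of 44.4 in wild type tips to 3834.4 in cov bases, whereas UGT74B1 overlaps between the genotypes at the tip and separates at the base.

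The mean BCAT4 signal at the tip was 560.5 ± 34.8 in cov and 44.4 ± 9.4 in wild type (SD, n = 2), a ratio of 12.6. The ratio of a single cov tip array to a single wild type tip array ran from 10.5 to 15.5. On the scale of log2(signal + 11.85), where the added constant damps differences between low values, cov minus wild type was 3.36 ± 0.16 (SE). That was the 4th highest value among the 15923 probe sets tested, whose middle 90% lay between -0.47 and 0.56. At the base the means were 3834.4 ± 267.4 and 2499.1 ± 216.2, a ratio of 1.53 and a log2 difference of 0.62 ± 0.16. That base value lay inside the middle 90% of tested probe sets at the base, -0.58 to 0.73. The genotype difference in BCAT4 was therefore greater at the tip as a ratio, but greater at the base in signal units, at 1335.3 against 516.2.

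UGT74B1 signal lay above the array median on every array and was highest at the base of cov. Its signal was 156.8 and 91.4 in wild type tips and 192.5 and 146.2 in cov tips, so the genotypes overlapped at the tip. In wild type bases it was 314.0 and 235.9, and in cov bases 682.7 and 643.8. Both cov bases lay above every other array, and the bases of each genotype lay above its tips. The order of the group means was the same as for BCAT4, but the arrays of cov tip and wild type tip, neighbours in that order, overlapped.

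At the base the mean UGT74B1 signal was 663.2 ± 27.5 in cov against 274.9 ± 55.2 in wild type (SD, n = 2), a ratio of 2.41 and a log2 difference of 1.25 ± 0.24 (SE). At the tip the means were 169.3 ± 32.7 and 124.1 ± 46.2, with a log2 difference of 0.45 ± 0.24. Omission of single arrays moved that tip value most for the wild type tip, to 0.80 without array 1 and 0.09 without array 2. Array 1 read higher than array 2 in all 4 groups for this gene, and the arrays of a group differed by up to 1.72-fold in wild type tips. BCAT4 was tighter, with a within-group SD of 0.152 on the log2 scale against 0.317 for UGT74B1. The standard errors are moderated by limma, which draws the spread of a gene toward that of probe sets of like signal. The 0.24 of UGT74B1 thus lies below its own SD of 0.317.

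As background for these separations, both cov arrays lay above both wild type arrays in 22.8% of tested probe sets at the tip and in 25.3% at the base. Both base arrays lay above both tip arrays in 34.1% of probe sets in wild type and in 34.1% in cov. Separation of the arrays without the size of the difference was thus common across the array design. The summed secondary wall markers were lower in cov than in wild type at the base, as given above. Their part in the values of BCAT4 and UGT74B1 was not tested. In whole pieces, with floral organ RNA in the tips, a change in the share of cells that express a gene and a change in its RNA per cell cannot be told apart.

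Along the stem the gradients in cov and wild type were compared for each gene. The tips also held floral organ RNA, with mean SHT signal 247.8 in cov and 272.4 in wild type tips against 7.25 and 8.35 in their bases. Base minus tip, here and below, is therefore not a comparison of stem tissue alone. The part of floral RNA in these values was not tested. The base to tip ratio of mean BCAT4 signals was 56.3 in wild type and 6.84 in cov, or log2 differences of 5.49 ± 0.16 and 2.75 ± 0.16 (SE). For UGT74B1 it was 2.22 in wild type and 3.92 in cov, or 1.11 ± 0.24 and 1.91 ± 0.24. The log2 gradient of BCAT4 was thus shallower in cov by 2.74 ± 0.22, while that of UGT74B1 was steeper by 0.80 ± 0.33. The latter ranged from 0.45 without wild type tip array 1 to 1.16 without array 2. It lay inside the middle 90% of tested probe sets, -0.8 to 0.83, as did the wild type gradient of UGT74B1 (-1.81 to 1.65). Its gradient in cov lay above that range (-1.28 to 1.19). In signal units the rise from tip to base was larger in cov for both genes, at 3273.9 against 2454.7 for BCAT4 and 493.9 against 150.8 for UGT74B1. The direction of the BCAT4 contrast between genotypes therefore depends on whether ratios or signal differences are compared.

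Other genes of the pathway were taken from a list of 77, of which 12 had a named probe set, BCAT4 and UGT74B1 included. The remaining 65 were not analysed here, among them MAM1, CYP79F1, CYP83A1 and MYB28. Of the other 10 genes 9 passed the filter on dim probe sets. AT2G25450 did not, at 1.0 to 7.1 on all arrays. The filter used the mean over all arrays, with a limit of 21.36. BCAT4 and UGT74B1 passed at 1734.6 and 307.9, and their lowest single values (37.7 and 91.4) also lay above the limit.

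At the stem base of cov 5 of these 9 genes rose, 0 fell and 4 did not pass, by limma with Benjamini-Hochberg adjustment over all probe sets. Across all tested probe sets 3.42% were called higher and 2.11% lower in that contrast (545 and 336 probe sets, or 396 and 388 after median centring of the arrays). The median log2 difference of the 9 genes was 0.86, against 0.02 over all probe sets. At the tip 2 of 9 rose and 0 fell, where 1.41% of all probe sets were called higher and 0.408% lower, and the median was 0.20 against 0.01. At an unadjusted p under 0.05 the counts at base and tip stayed at 5 and 2, with 0 lower. Over all probe sets that threshold took 11.2% as higher and 7.98% as lower at the base, and 6.53% and 4.21% at the tip. The genes that rose belong to core synthesis, side chain modification and transport.

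Among core synthesis genes, GSTU20, a glutathione S-transferase placed in the pathway by co-expression, was higher in cov at both ends of the stem. Its signal was 719.3 and 864.4 in wild type tips, 1592.3 and 1286.7 in cov tips, 1016.5 and 1164.6 in wild type bases and 2547.8 and 2689.8 in cov bases. Genotypes did not overlap at either end. The log2 difference was 1.26 ± 0.16 at the base (adjusted p = 0.00141) and 0.85 ± 0.16 at the tip (adjusted p = 0.0249). The tip call for GSTU20 was lost when any single tip array was omitted, at adjusted p = 0.0502 (wild type array 2) to 0.287 (cov array 1), and at 0.082 without the dim filter.

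AT2G31790, named here only by its locus and listed with the core synthesis and UGT74 genes, had nearly the same signal at both ends of the wild type stem. It read 156.4 and 143.0 in wild type tips, 151.4 and 149.5 in wild type bases and 188.8 and 150.6 in cov tips. In cov bases it read 440.0 and 460.9, above all other arrays. Its genotype difference was 1.51 ± 0.16 at the base (adjusted p = 0.000406) and 0.16 ± 0.16 at the tip (adjusted p = 0.808). The difference between these differences was 1.35 ± 0.22 (adjusted p = 0.0123), a call lost without cov tip array 2 (0.0787). Like UGT74B1, this gene had its greater log2 difference between genotypes at the base.

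The side chain genes AOP1 and AOP3 differed from each other. AOP3, a dioxygenase that makes hydroxyalkyl glucosinolates and is known to be active in Ler, read 240.0 and 230.2 in wild type tips and 576.2 and 497.3 in cov tips. At the base it read 847.7 and 684.2 in wild type and 2233.7 and 2116.4 in cov. The genotypes were separate at each end, and both gradients ran upward to the base. AOP3 was higher in cov by 1.5 ± 0.15 at the base (adjusted p = 0.000395) and by 1.15 ± 0.15 at the tip (adjusted p = 0.00305, or 0.056 without cov tip array 1). AOP1, a related gene beside it whose role is less clear, read 73.7 to 106.5 in the tips and 23.9 to 33.9 in the bases. AOP1 did not pass between genotypes at either end (0.22 ± 0.21 at the base and -0.01 ± 0.21 at the tip) and was lower at the base than at the tip in both. AOP genes are tandem duplicates, and whether these probe sets separate AOP3 from its close copy AOP2 was not tested.

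Of the transporters, GTR2 and GTR1, which import glucosinolates into cells and act in phloem loading, were both higher in cov bases. GTR2 read 225.8 and 197.1 in wild type tips, 248.8 and 264.0 in cov tips, 180.6 and 217.8 in wild type bases and 589.5 and 712.4 in cov bases. The cov bases stood apart, while the other 6 arrays lay between 180.6 and 264.0. GTR2 was higher in cov by 1.65 ± 0.16 at the base (adjusted p = 0.000314), against 0.27 ± 0.16 at the tip (adjusted p = 0.637). The difference between the differences was 1.38 ± 0.23 (adjusted p = 0.0132). That call did not survive omission of either cov tip array (0.0666 and 0.0602), of array 1 of the wild type tip (0.0523) or of array 1 of the wild type base (0.0574).

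GTR1 was 0.86 ± 0.18 higher in cov bases on the log2 scale (adjusted p = 0.0174), with 313.1 and 387.1 against 208.2 and 166.3. It did not survive omission of array 2 of the cov base (0.102) or of the wild type base (0.104), or median centring of the arrays (0.0518). At the tip it did not pass, at 0.32 ± 0.18 (adjusted p = 0.595).

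The measured regulators and the breakdown gene did not pass between genotypes. MYC3 and MYC4, jasmonate-pathway transcription factors that act with MYB factors on glucosinolate genes, had log2 differences of -0.15 ± 0.22 and -0.23 ± 0.25 at the base (adjusted p = 0.787 and 0.699). At the tip they were -0.27 ± 0.22 and 0.20 ± 0.25 (adjusted p = 0.761 and 0.871). PYK10, a beta-glucosidase of endoplasmic reticulum bodies that acts mainly in roots and seedlings, read 15.9 to 26.4 on all arrays, near the dim limit. Its genotype differences were 0.17 ± 0.25 at the tip and 0.27 ± 0.25 at the base (adjusted p = 0.901 and 0.631).

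**Figure D2:**
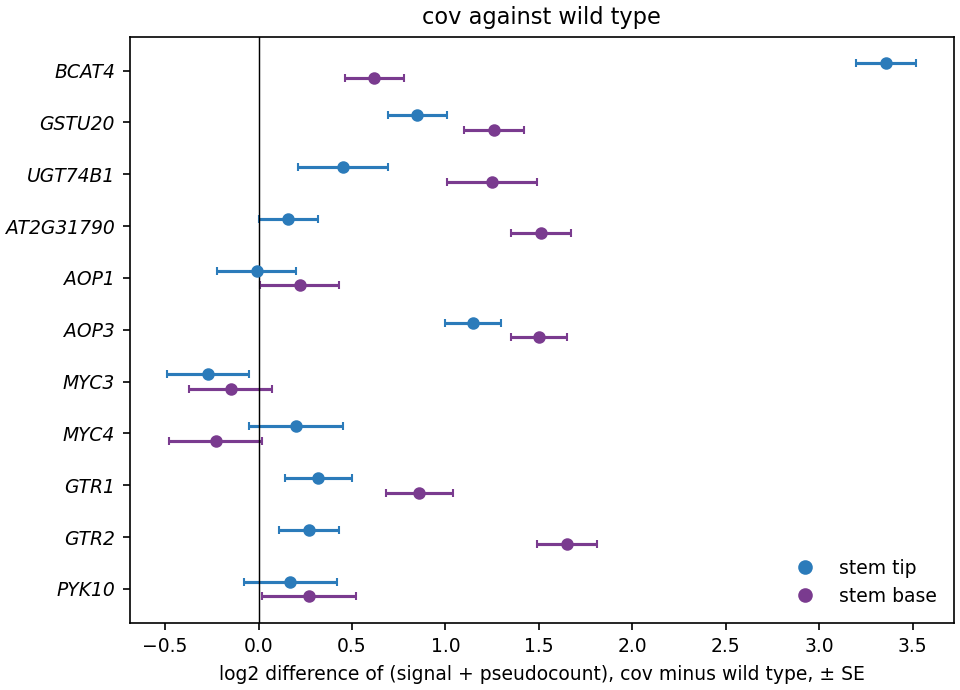
Log2 difference of (signal + 11.85), cov minus wild type, for the 11 tested glucosinolate genes at the stem tip (blue) and base (purple). Points are estimates from 2 arrays per group and bars are standard errors. BCAT4 has its larger difference at the tip (3.36), whereas UGT74B1, AT2G31790, AOP3, GSTU20, GTR1 and GTR2 lie further right at the base.

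The difference between the genotype differences, base minus tip, had a median of 0.35 in the 9 other genes, against 0.01 over all probe sets. It was below 0 in MYC4 (-0.43 ± 0.35, adjusted p = 0.636) and above 0 in the other 8. Of these 8, PYK10 (0.10 ± 0.35), MYC3 (0.12 ± 0.32) and AOP1 (0.22 ± 0.30) lay within their standard error of 0. The share of all probe sets above 0 was not counted, so the signs are a description only. Of the 9 genes, 2 were called higher, GTR2 and AT2G31790, and 0 lower, where 1.11% of all probe sets were called higher and 1.04% lower. The value of BCAT4, -2.74, was the 15th lowest of 15923 probe sets, and that of UGT74B1, 0.80, lay on the side of most other genes of the list. In GSTU20 the value was 0.41 ± 0.23 (adjusted p = 0.46) and in AOP3 0.35 ± 0.22 (adjusted p = 0.503). In these genes a differing response at the ends of the stem was not detectable with 2 arrays per group.

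From tip to base in wild type 4 of the 9 genes rose (AOP3, MYC4, MYC3 and GSTU20) and AOP1 fell. Over all probe sets 22% were called higher at the base and 24.4% lower. In cov 7 rose and AOP1 fell, where 15.4% of all probe sets were called higher and 15.8% lower. The 3 genes called in cov and not in wild type were AT2G31790, GTR1 and GTR2. Of these, AT2G31790 and GTR2 passed the test of the difference given above, and GTR1 did not (0.55 ± 0.25, adjusted p = 0.345). AOP3 rose by 1.65 ± 0.15 in wild type (adjusted p = 9.11e-06) and by 2.0 ± 0.15 in cov (adjusted p = 6.13e-06). MYC4 rose by 1.30 ± 0.25 in wild type (adjusted p = 0.00148) and by 0.87 ± 0.25 in cov (adjusted p = 0.0221). MYC3 had 0.63 ± 0.22 (adjusted p = 0.0388) and 0.75 ± 0.22 (adjusted p = 0.0257), and GSTU20 0.46 ± 0.16 in wild type (adjusted p = 0.0387). Single omissions ended the calls of MYC3 in both genotypes (up to 0.306 without wild type tip array 2), of MYC4 in cov (up to 0.172 without cov base array 1) and of GSTU20 in wild type (up to 0.21 without wild type tip array 1).

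The measured relatives of both enzymes were not higher at the base in wild type. Of 7 BCAT genes, which also serve the turnover of leucine, isoleucine and valine, 3 were measured. ATBCAT-5 read 159.8 and 198.7 in wild type tips against 107.6 and 116.2 in wild type bases. AT1G50110 read 137.6 and 133.2 in wild type tips, 90.0 and 80.7 in cov tips and 23.8 to 32.6 in the bases. AT1G50110 fell from tip to base by 1.85 ± 0.19 in wild type (adjusted p = 1.58e-05) and by 1.36 ± 0.19 in cov (adjusted p = 0.00031). ATBCAT-5 fell by 0.62 ± 0.19 in wild type (adjusted p = 0.0211) and had -0.12 ± 0.19 in cov (adjusted p = 0.695). Between genotypes neither passed, with -0.28 ± 0.19 and -0.60 ± 0.19 at the tip (adjusted p = 0.691 and 0.20) for ATBCAT-5 and AT1G50110.

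Probe sets were named for 4 of 7 UGT74 genes, and 3 genes passed the dim filter. UGT74D1, whose product acts on auxin metabolites, read 43.3 to 55.5 in the tips and 19.4 to 29.3 in the bases. It fell from tip to base by 0.99 ± 0.21 in wild type (adjusted p = 0.00322) and by 0.63 ± 0.21 in cov (adjusted p = 0.0472), and did not pass between genotypes (adjusted p = 0.84 at the tip and 0.757 at the base). UGT74F1, a salicylic acid glucosyltransferase gene, was dim at 2.3 to 14.2 and was not tested. UGT74D1, ATBCAT-5 and AT1G50110 thus had lower signal at the base of wild type, where UGT74B1 and BCAT4 had higher. Over all probe sets 24.4% were called lower in that contrast. AT2G31790, also a tested UGT74 gene, did not pass in wild type (0.01 ± 0.16) and rose by 1.36 ± 0.16 in cov.

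**Figure D3:**
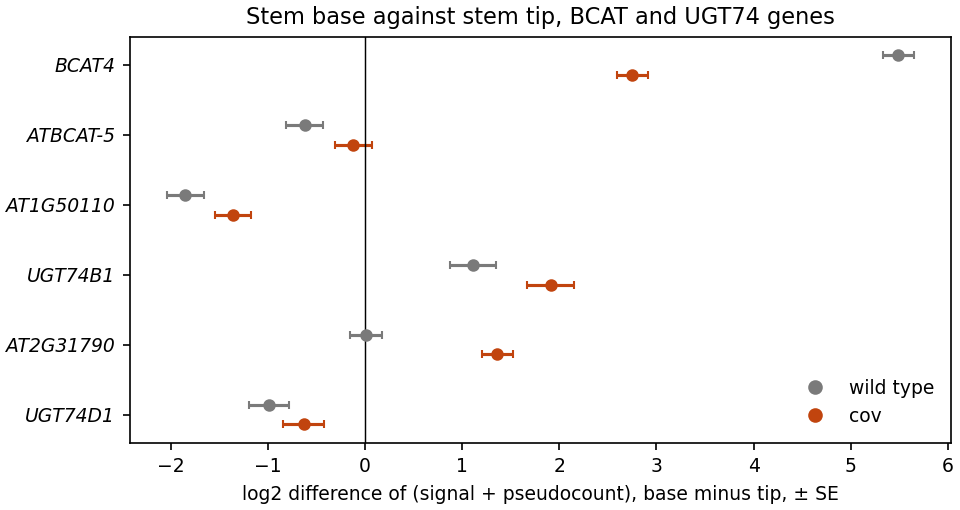
Log2 difference of (signal + 11.85), stem base minus stem tip, for the tested BCAT and UGT74 genes in wild type (grey) and cov (orange), with standard errors from 2 arrays per group. BCAT4 and UGT74B1 lie right of 0 in both genotypes, ATBCAT-5, AT1G50110 and UGT74D1 lie left of 0, and AT2G31790 is at 0.01 in wild type and 1.36 in cov.

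The log2 values of BCAT4 and UGT74B1 correlated at r = 0.835 over the 8 arrays, a description that reflects mainly the shared difference between tip and base. Among 2275 named probe sets with an SD of at least 0.5 over the arrays, 71 followed BCAT4 at r of 0.95 or more and 7 followed UGT74B1. The 5 most like BCAT4 were AT1G72060 (r = 0.994), AT5G17850 (0.992), AT2G41090 (0.991), AT1G03400 (0.990) and AT5G42050 (0.989). All 5 shared the order of a low wild type tip, an intermediate cov tip and high bases. Choice by correlation with BCAT4 on these same arrays favours that order, so it is no separate result. At the tip their log2 differences between genotypes ran from 0.61 (AT5G17850) to 1.66 (AT2G41090), and at the base from 0.00 to 0.25, so that none came near the 3.36 of BCAT4. AT2G41090 had the widest gradient of the 5 in wild type (log2 difference 3.01 ± 0.16), with 257.5 and 234.6 in wild type tips, 764.7 and 842.1 in cov tips, 2351.7 and 1821.0 in wild type bases and 2050.7 and 2089.5 in cov bases. Unlike BCAT4, AT2G41090 overlapped between genotypes at the base.

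The 5 genes most like UGT74B1 were AT3G51450 (r = 0.976), AT3G19550 (0.971), AT1G23460 (0.968), AOP3 (0.964) and AT1G76970 (0.958). AOP3 was the only one of them in the glucosinolate list. AT3G19550 read 175.4 and 158.4 in wild type tips, 188.4 and 190.2 in cov tips, 386.6 and 328.3 in wild type bases and 659.4 and 732.7 in cov bases. The cov bases were the highest arrays for each of these 5 genes, which likewise follows from their choice by correlation. Their log2 differences between genotypes at the base ran from 0.61 (AT1G76970) to 1.5 (AOP3). The probe set of AT1G23460 is of a type that can match several transcripts, so its value is uncertain.

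**Figure D4:**
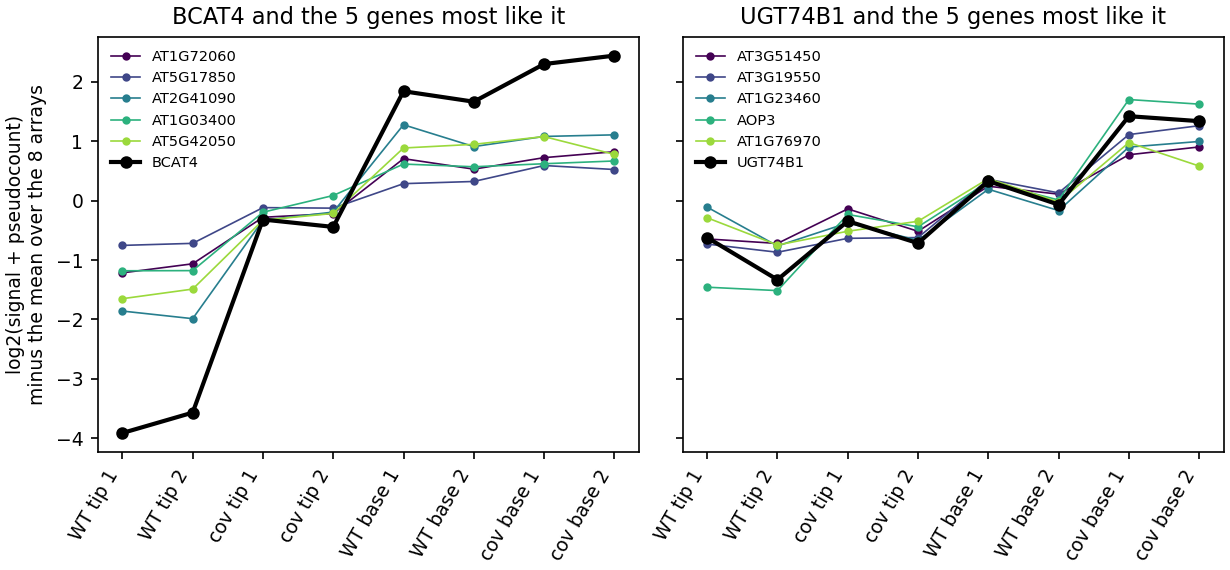
Log2(signal + 11.85) minus its mean over the 8 arrays for BCAT4 and UGT74B1 (black) and the 5 named genes most correlated with each (coloured). The x axis gives the arrays by group, and lines join arrays only to guide the eye. The genes like BCAT4 share its low wild type tips but span a narrower range, and those like UGT74B1 have their highest values in the cov bases. The shared shape follows from the choice by correlation.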

How the data were processed

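The deposited table holds MAS5 signal intensity on a linear scale for 22810 probe sets on 8 arrays, per the submitters' processing notes, whose version of MAS5 is not given in the sources used here. After trimming 2% of values at each end the mean was 100.0 on every array, so no further scaling was applied. The table had 0 columns of no sample and 91 values of 0. Controls (64) were left out, and symbols were updated by gene identifier from RefSeq's TAIR10.1 table for 13436 of 13513 probe sets with 1 gene. Probe sets with a mean signal below 21.36 (the 30th percentile) were dropped, which left 15923. Log2 intensity was computed from the deposited values after adding 11.85, which is 0.25 of the table median, and a mean per group was fitted in limma 3.58.1 (R 4.3.3) with eBayes and a trend, using all 8 arrays. All standard errors (SE) of log2 differences are the moderated ones of this fit. They pool the spread over the 4 groups and draw it toward a trend across probe sets. P-values are two-sided, with Benjamini-Hochberg adjustment over all tested probe sets and a threshold of 0.05. The fit was also run on simulated data with independent noise and with changes added in cov tips only. The real data differ, with many probe sets called between base and tip, so that run is no check of the results above.

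The members, the lists and the tests were chosen with earlier results of these data known. Named genes are both members, the genes of the glucosinolate, BCAT and UGT74 lists, and the 5 genes most correlated with each member among tested probe sets with 1 gene and an SD of at least 0.5. The labels do not say whether replicates came from separate plants, so p-values measure only the spread between these arrays, which may be technical. With 2 arrays per group, precision is limited by their number. The genetic background of cov cannot be told apart from the mutation. The alternatives were other pseudocounts, no dim filter, median centring, quantile normalization, a replicate block and omission of each array.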

Additional observations from a re-analysis of the deposited data

Results flagged for a closer look

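The difference between genotypes depended on the part of the stem for GTR2, where cov minus wild type was 1.38 ± 0.23 larger at the base than at the tip on the log2 scale (interaction contrast in limma, adjusted p = 0.0132, n = 2 arrays per group). AT2G31790 met the same test with 1.35 ± 0.22 (adjusted p = 0.0123). Neither gene is one of the members, but the gene list was also chosen with earlier results of these data known. The call of GTR2 was lost on 4 omissions of a single array and that of AT2G31790 on 1, as given above.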

How the results depend on the processing

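BCAT4 and UGT74B1 kept the sign of all 5 log2 differences under the 14 alternatives. The pseudocount moved the values that involve wild type tips: for BCAT4, cov minus wild type at the tip was 2.73 with the table median as pseudocount and 3.64 with 1, base minus tip in wild type 4.80 and 5.80, and the difference of differences -2.12 and -3.03. Quantile normalization gave 2.59 for base minus tip of BCAT4 in cov. Omission of single arrays gave BCAT4 3.19 to 3.53 at the tip, 5.32 to 5.66 for the wild type gradient and -2.91 to -2.57 for the difference of differences, and UGT74B1 0.09 to 0.80, 0.75 to 1.46 and 0.45 to 1.16. Over all probe sets omissions gave 116 to 350 calls at the tip (290 with all arrays), 440 to 873 at the base (881), 2870 to 5062 for base minus tip in cov (4978) and 111 to 465 for the difference of differences (342), the last being 139 without the dim filter. Of the 9 other glucosinolate genes, without the dim filter 1 was called at the tip and 3 between base and tip in wild type, and omissions gave 0 to 2 at the tip, 3 to 5 in the wild type gradient and 0 to 2 for the difference of differences. Of the 22 calls of these genes 9 were lost under at least 1 alternative and 0 changed sign. The cause of these shifts was not tested. Arrays of the same replicate number did not deviate together throughout (r = -0.043 to 0.162 between groups), so the numbers were not taken as pairs. With a replicate block, 299 probe sets were called at the tip and 890 at the base, and the call of GSTU20 between base and tip in wild type was lost (0.0516). The standard error of UGT74B1 between genotypes fell to 0.17.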
